A study of Rattus norvegicus with 17 samples.

Results

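Defa5 (ENSRNOG00000030093), Np4 (ENSRNOG00000028707) and RatNP-3b (ENSRNOG00000038135) are 3 alpha-defensin transcripts, chosen by the study's comparison of stimulated with unstimulated injured rats, in which the study lists them as altered. They are 3 of the 32494 Ensembl genes counted, and all 3 were among the 15460 that passed the filter on low counts. RNA of the spinal cord was sequenced in 17 female young-adult rats, 10 to 12 weeks old. The strain is Sprague-Dawley in the study's methods and Brown Norway in its keywords. Group A (4 rats) had sham injury and sham stimulation, and group B (3 rats) had a spinal cord injury (SCI) and sham stimulation. Group C (3 rats) had SCI and stimulation, group D (2 rats) had SCI, stimulation and pimozide at 1 mg/kg, and group E (5 rats) had sham injury and stimulation. Pimozide blocks dopamine D2 receptors and serotonin receptors of the 5-HT7 type. The cord was bruised by a moderate contusion at T8, and stimulation lasted 2 h, on the third day, through an electrode in the nucleus raphe magnus (NRM), a serotonergic nucleus of the lower brainstem. By the study's methods the surgery was under ketamine and xylazine, some control rats had the laminectomy without the contusion, and electrodes were placed under isoflurane in unstimulated rats as well. Cervical, thoracic and lumbar blocks with the pia-arachnoid were combined into 1 library per rat, so a value is an average over the lesion and the cord on either side of it. Whether blood was washed out by perfusion is not given in the sources used here. In group E the treatment label reads uninjured and unstimulated, against the letter in their titles, the design text and the study, and they were analyzed as stimulated.

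Alpha-defensins are small, cationic peptides held together by disulfide bonds, which permeabilize the membranes of bacteria and fungi. In the rat, unlike the mouse, neutrophils store them in azurophil granules together with myeloperoxidase and serine proteases, while other members of the family are products of Paneth cells in the gut. Their mRNA is made mainly in promyelocytes in the bone marrow and declines as the cell matures, so that circulating neutrophils carry the peptide with little of the message.

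The 3 genes lie on chromosome 16, in a run of 14 alpha-defensin entries of the RefSeq table for GRCr8 with 0 other genes between them. Defa5 stands at one end of the run, RatNP-3b at the other, and Np4 inside it next to Defa9 and Defa10. The run holds 9 protein-coding genes and 3 pseudogenes, and the sequences of the family are alike. By its manual the counting function used by the authors takes only reads that map to 1 place, so reads that fit several of these genes may be missing from the counts, and the split among the 3 is uncertain. The promoters of Np4 and RatNP-3b, from 250 bases before to 50 bases after the start of the gene, show how near the copies are and are printed here because the transcripts rose and fell together from rat to rat. Both are on the minus strand of GRCr8, Np4 at chr16:77199593-77199892 and RatNP-3b at chr16:77248928-77249227, and a promoter of Defa5 was not among the sequences used. The capitals mark letters of TTNNGNAA, a loose pattern for C/EBP factors, and TGTGGT, the core of Runx factors, on either strand; C/EBP and Runx proteins are regulators of the granulocyte lineage.
Np4: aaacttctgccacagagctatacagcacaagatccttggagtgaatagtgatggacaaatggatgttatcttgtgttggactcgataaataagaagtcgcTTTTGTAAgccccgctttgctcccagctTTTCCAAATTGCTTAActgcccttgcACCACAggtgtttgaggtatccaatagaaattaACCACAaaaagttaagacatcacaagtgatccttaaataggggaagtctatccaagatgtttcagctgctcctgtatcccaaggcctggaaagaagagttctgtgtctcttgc
RatNP-3b: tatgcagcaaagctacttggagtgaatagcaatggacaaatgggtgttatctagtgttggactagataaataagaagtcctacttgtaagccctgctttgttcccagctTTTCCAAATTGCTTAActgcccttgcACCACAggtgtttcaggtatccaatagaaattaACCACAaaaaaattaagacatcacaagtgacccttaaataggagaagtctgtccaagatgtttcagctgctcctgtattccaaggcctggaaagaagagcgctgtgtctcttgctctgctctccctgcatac

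The promoters were identical at 92.2% of 281 aligned bases, and that of Defa11, which lies between Np4 and RatNP-3b, was 91.3% identical to Np4 and 91.8% to RatNP-3b. That of Defa9 was only 53.2% identical to RatNP-3b. The C/EBP pattern occurred 3 times in Np4 and 2 times in RatNP-3b. A match to it was present in 41.3% of 33469 promoters of the same length, and 2 or more in 15.4%. The Runx core occurred 2 times in each, against 17.3% of promoters with a match and 2.02% with at least 2. Both also held CCAAT (37.5% of promoters) and AACNG, a core of Myb factors (81.4% of promoters), which overlaps the end of a C/EBP match. TATAAA (14.2%) and GAGGAA, a core of PU.1 (27.6%), were not in either window. Such matches describe letters, not binding.

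Counts were scaled by library size with TMM factors and are given in CPM (counts scaled to a common library size). The libraries held 9852873 to 14137717 counts on genes, so 1 CPM is about 10 reads. The counts of the 3 transcripts were low, from 0 to 193 per rat. Between rats of a group the chi-square of all genes together was 4.19 to 38.0 per degree of freedom, where counting error on its own would give 1. The exact Poisson intervals quoted for single counts cover counting error only.

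Defa5, whose RefSeq synonyms are ratNP-1 and ratNP-2, was detected in each of the 17 rats. In group A it measured 0.521, 1.02, 2.56 and 7.60 CPM (rats 70, 82, 83 and 84) and in group B 1.65, 0.770 and 0.674 CPM (rats 91, 94 and 95). In group C it was at 12.7, 11.9 and 6.43 CPM (rats 89, 90 and 93), in group D at 1.14 and 0.818 CPM (rats 75 and 76) and in group E at 0.340, 2.58, 0.910, 2.82 and 2.80 CPM (rats 69, 85, 86, 87 and 88). The rats of group C were high and did not overlap those of groups B, D and E, but rat 84 of group A lay above the lowest of them. The means were 2.93 ± 3.23 CPM (SD, n = 4) in group A, 1.03 ± 0.539 CPM (SD, n = 3) in group B, 10.3 ± 3.41 CPM (SD, n = 3) in group C and 1.89 ± 1.18 CPM (SD, n = 5) in group E.

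Np4, the gene of neutrophil peptide 4, spread still more. In group A it measured 0.313, 0.706, 1.42 and 9.87 CPM in the same order of rats, and in group B 1.28, 0.481 and 1.16 CPM. In group C it was at 14.1, 17.8 and 6.17 CPM, in group D at 2.78 and 0.636 CPM and in group E at 0.255, 3.44, 0.770, 5.35 and 2.63 CPM. Rat 84 stood far above the other 3 rats of group A, and above rat 93 of group C. The means were 3.08 ± 4.55 CPM (SD, n = 4) in group A, 0.974 ± 0.432 CPM (SD, n = 3) in group B, 12.7 ± 5.93 CPM (SD, n = 3) in group C and 2.49 ± 2.06 CPM (SD, n = 5) in group E. The highest rat of group A had 31.6 times as much Np4 as the lowest, against 2.88 times within group C.

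RatNP-3b, the gene of neutrophil peptide 3, was the only one of the 3 with a rat at 0. Rat 70 of group A had 0 counts, for which the exact 95% interval reaches 0.384 CPM, and the others of that group measured 0.549, 4.27 and 4.54 CPM. In group B it was at 1.83, 0.962 and 2.02 CPM, in group C at 13.0, 8.65 and 5.64 CPM, in group D at 1.50 and 0.727 CPM and in group E at 0.170, 1.56, 0.560, 2.63 and 2.10 CPM. Here group C lay above every rat of the other groups. The means were 2.34 ± 2.40 CPM (SD, n = 4) in group A, 1.61 ± 0.566 CPM (SD, n = 3) in group B, 9.11 ± 3.72 CPM (SD, n = 3) in group C and 1.40 ± 1.03 CPM (SD, n = 5) in group E. At the low end the counting error is wide, as for the 2 reads of rat 69, whose 95% interval is 0.0206 to 0.614 CPM.

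**Figure D1:**
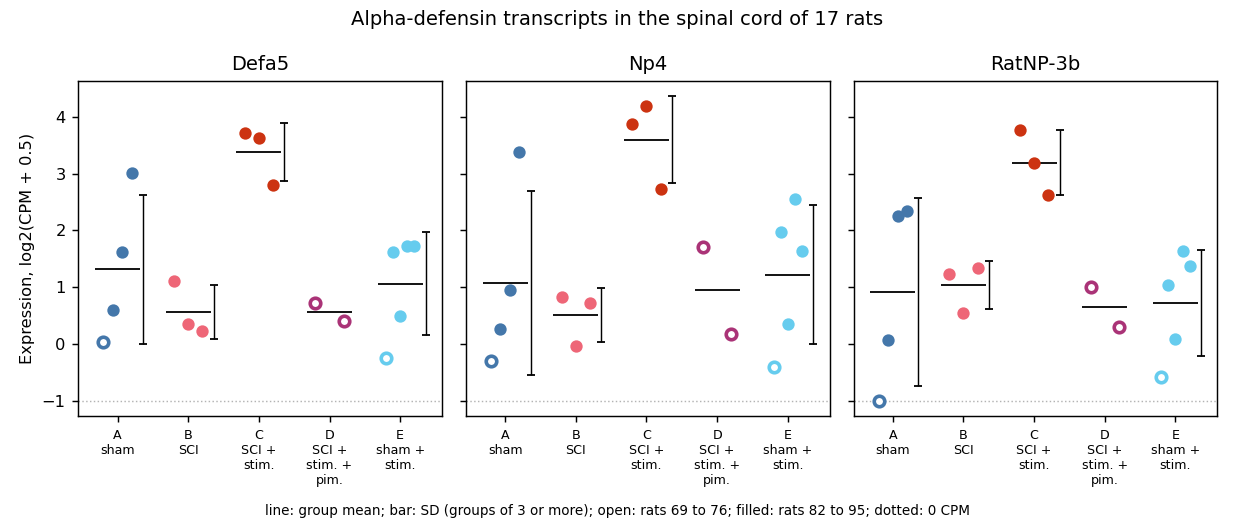
Levels of Defa5, Np4 and RatNP-3b in log2(CPM + 0.5), by group, with 1 point per rat; lines are group means, bars are SDs for groups of 3 or more rats, open points are rats numbered 69 to 76 and filled points rats 82 to 95. The mean of group C is the highest in each panel, while the 4 rats of group A run from 0.521 to 7.60, 0.313 to 9.87 and 0 to 4.54 CPM.

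Ordered by the median of each group, Defa5 rose from B (0.770 CPM) through D, A and E to C (11.9 CPM). Np4 rose from A (1.07 CPM) through B, D and E to C (14.1 CPM), and RatNP-3b from D (1.11 CPM) through E, B and A to C (8.65 CPM). In each order the lower 4 groups overlapped their neighbours, and the step from the next group to group C showed no overlap. Group C was nonetheless not clear of group A for Defa5 and Np4, since rat 84 lay above rat 93. That step is no test, since groups B and C served to choose the transcripts.

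The spread between rats was large for genes at this level. The biological coefficient of variation estimated by edgeR over the 17 rats was 61.4% for Defa5, 81.6% for Np4 and 75.9% for RatNP-3b. Among genes with a similar mean level, the medians were 19.8%, 18.4% and 20.5%, and 98.4%, 99.5% and 99.2% of those genes had a lower value. In a bulk sample, more cells with a transcript and more of it in each cell cannot be told apart.

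The response of intact rats to stimulation, contrast ±st(0), compares groups E and A, which had no part in the choice of the transcripts. None of the 3 passed the test. The log2(FC) was -0.63 for Defa5 (SE 0.610, 95% interval -1.92 to 0.66), -0.31 for Np4 (SE 0.795, interval -1.99 to 1.37) and -0.75 for RatNP-3b (SE 0.725, interval -2.28 to 0.78). The adjusted p values were 0.81, 0.95 and 0.81 by the quasi-likelihood test of edgeR, after Benjamini-Hochberg adjustment over all genes. All 3 intervals include a fall of 2-fold and that of Np4 also a rise of 2-fold, so that such changes were not detectable with these rats. Of all genes tested in this contrast 0% were called, with 1297 at an unadjusted p under 0.05, while DESeq2 called 17 and edgeR's exact test on the pair of groups 24.

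In edgeR's fit rat 84 decided the direction for Defa5 and Np4. Without it the log2(FC) was 0.45 for Defa5, 1.57 for Np4 and -0.21 for RatNP-3b. On single values of log2(CPM + 0.5), the difference between groups E and A was -0.25 for Defa5 (2-sided exact permutation test, p = 0.73), 0.15 for Np4 (exact p = 0.90) and -0.20 for RatNP-3b (exact p = 0.83), and each was 0.90 after adjustment over the 3. Without rat 84 these differences were 0.31, 0.92 and 0.27, so on this scale Defa5 and RatNP-3b turned. Within the rats numbered 82 to 95, 4 of group E and 3 of group A, the differences were -0.35, 0.10 and -0.51 (exact p = 0.63, 0.97 and 0.63).

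Group D against the uninjured groups asks whether injured, stimulated rats that received pimozide differed from intact ones. In D minus A the log2(FC) was -1.54 for Defa5 (SE 0.882), -0.78 for Np4 (SE 1.07) and -1.02 for RatNP-3b (SE 0.979), with adjusted p values of 0.21, 0.63 and 0.47 in edgeR's quasi-likelihood fit. In D minus E it was -0.91 (SE 0.872), -0.46 (SE 1.04) and -0.27 (SE 0.972) in the same order, with adjusted p values of 0.47, 0.78 and 0.86 by the same test. So 0 of the 3 were called in either contrast, where 8.07% and 7.77% of all genes tested were. The ranges of the groups overlapped for each transcript, whereas 45.3% of genes in D minus A and 40.5% in D minus E showed no overlap.

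The 17 rats carry numbers of 2 series, 69 to 76 and 82 to 95. The earlier one holds rats 75 and 76 of group D, rat 70 of group A and rat 69 of group E. What the series stands for is not stated. Rats 70 and 69 were the lowest of their groups in each of the 3 transcripts, and both rats of group D lay above them, for example at 0.818 and 1.14 CPM of Defa5 against 0.521 and 0.340 CPM. When the model carried a series term, the direction turned. D minus A was then 0.87 for Defa5 (SE 1.04), 2.41 for Np4 (SE 1.52) and 3.07 for RatNP-3b (SE 1.46) on the log2 scale (adjusted p = 0.59, 0.28 and 0.15 by edgeR). D minus E was 1.56, 2.79 and 3.84 (adjusted p = 0.33, 0.23 and 0.088 by edgeR). Only groups A and E hold rats of both series. The term therefore rests on rats 70 and 69, with 0 to 5 reads of each transcript, and the turned directions are uncertain. The part of the series in these values was not tested further.

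The contrasts that contain rats of groups B or C are described without a test, because the study chose the transcripts by comparing those groups. In ±st(SCI), C minus B, the log2(FC) was 3.30 for Defa5 (SE 0.768), 3.68 for Np4 (SE 1.03) and 2.49 for RatNP-3b (SE 0.821), or 9.86-, 12.8- and 5.64-fold. The rats of the 2 groups did not overlap for any of the 3, against 6.15% of all genes. The model of all rats called 0% of genes in this contrast, with 476 at an unadjusted p under 0.05, the exact test on the pair of groups called 35, and DESeq2 called 0. Leaving out any 1 rat kept the values between 3.07 and 3.82 for Defa5, 3.36 and 4.02 for Np4 and 2.14 and 2.76 for RatNP-3b.

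Injury alone, ±SCI(0), gave values on the opposite side. B minus A was -1.47 for Defa5 (SE 0.778), -1.63 for Np4 (SE 1.05) and -0.53 for RatNP-3b (SE 0.833). Without rat 84 the values were -0.40, 0.25 and 0.01, and without rat 83 that of RatNP-3b was -0.05, and in CPM the rats of group B lay within the range of group A for each transcript, while 32.6% of genes showed no overlap. Against intact unstimulated rats, ±st/SCI(0), group C was higher by 1.83 for Defa5 (SE 0.619), 2.06 for Np4 (SE 0.814) and 1.97 for RatNP-3b (SE 0.717) on the log2 scale, and by 2.91, 3.94 and 2.51 without rat 84. Only RatNP-3b showed no overlap of the rats there, as did 28.9% of genes. Against intact stimulated rats, ±SCI(st), the log2(FC) was 2.46 (SE 0.594), 2.37 (SE 0.766) and 2.72 (SE 0.695). Here no rats overlapped for any of the 3, against 27.1% of all genes.

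With pimozide, ±pim(st/SCI), the 3 transcripts were lower, with D minus C at -3.37 for Defa5 (SE 0.890), -2.83 for Np4 (SE 1.09) and -2.99 for RatNP-3b (SE 0.984). The groups did not overlap for any of them, against 18% of all genes. Without rat 75 the values were -3.64, -4.29 and -3.63, and without rat 76 they were -3.17, -2.18 and -2.60, each time with a lone rat in group D. The number series separates the 2 groups completely. With its term in the model the values were -0.63 for Defa5, 0.72 for Np4 and 1.45 for RatNP-3b, so the latter 2 turned. That term rests on rats 70 and 69 of groups A and E, with 0 to 5 reads of each transcript, so the turned signs are uncertain. Group C enters 4 of these contrasts, so its high values appear in each of them.

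**Figure D2:**
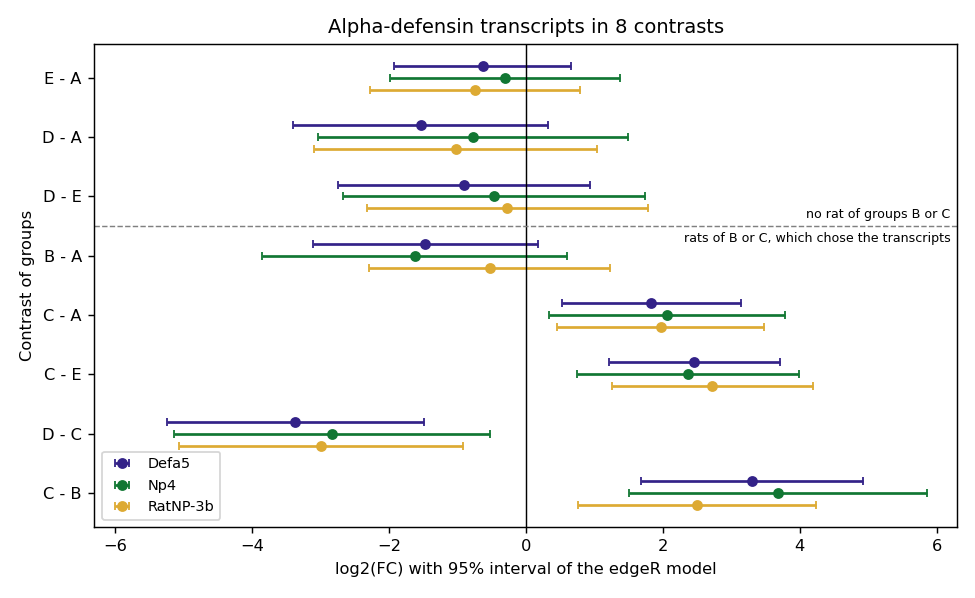
The log2(FC) of Defa5, Np4 and RatNP-3b in 8 contrasts of groups, on the horizontal axis, with the 95% interval of edgeR's model. The 3 contrasts above the dashed line hold no rat of groups B or C, and each of their intervals includes 0; those below it contain the rats that chose the transcripts.

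From rat to rat the 3 transcripts moved together. Over the 11 rats of groups A, D and E, none of which chose them, Pearson's r of log2(CPM + 0.5) was 0.917 for Defa5 and Np4, 0.908 for Defa5 and RatNP-3b, and 0.842 for Np4 and RatNP-3b. Permutation tests gave adjusted p values over the 3 pairs of 0.00024, 0.00024 and 0.0017. Spearman's rho was 0.945, 0.900 and 0.845, with adjusted permutation p values of 0.00012, 0.00075 and 0.0018. Without rats 84 and 87, the most distant in level of the first-named transcript, r was 0.843, 0.892 and 0.770. Within the 7 rats numbered 82 to 95 of groups A and E, r was 0.921, 0.874 and 0.718 (adjusted permutation p = 0.0070, 0.0093 and 0.077), so the last pair no longer passed. Over all 17 rats, which include those that chose the transcripts, r was 0.954, 0.920 and 0.894, and 0.933, 0.900 and 0.847 with the group means removed, which is a description only. All 3 counts of a rat come from 1 library.

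**Figure D3:**
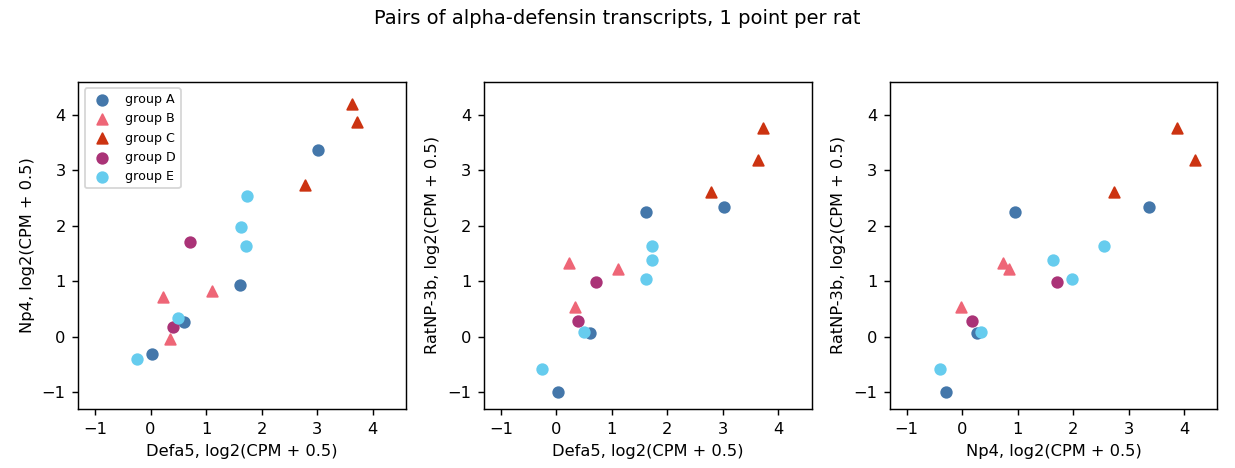
Levels of each pair of transcripts in log2(CPM + 0.5), with 1 point per rat; circles are the 11 rats of groups A, D and E and triangles the rats of groups B and C. The points follow a common rise in each panel, with r of 0.917, 0.908 and 0.842 over the circles.

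The sum of the 3 transcripts varied widely within the intact groups. In group A it was 0.833, 2.27, 8.26 and 22.0 CPM, and in group E it was 0.765, 7.57, 2.24, 10.8 and 7.53 CPM. Groups B and D lay inside these ranges, at 2.21 to 4.77 CPM and 2.18 to 5.42 CPM. Group C measured 39.8, 38.3 and 18.2 CPM, so only rat 84 of the intact rats reached its lowest value.

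The make-up of the sum also varied between rats, at 8 to 458 summed reads per rat. Defa5 took 31.0% to 62.5% of the reads of a rat in group A, 17.5% to 34.8% in group B, 31.0% to 35.2% in group C, 21.1% and 37.5% in group D and 26.1% to 44.4% in group E. Np4 took 17.2% to 44.8%, 21.7% to 30%, 33.8% to 46.4%, 29.2% and 51.3%, and 33.3% to 49.6% in the same order of groups. RatNP-3b took 0% to 51.7%, 38.5% to 52.5%, 22.6% to 32.8%, 27.6% and 33.3%, and 20.6% to 27.9%. These are shares of reads and not of molecules, since the counts are not per length. Over the 15 rats with enough reads, the chi-square of the shares was 3.23 per degree of freedom, where counting error would give 1. Rat 83 of group A and rat 95 of group B had the highest shares of RatNP-3b, at 51.7% and 52.5%, where rat 84 had 20.6%.

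**Figure D4:**
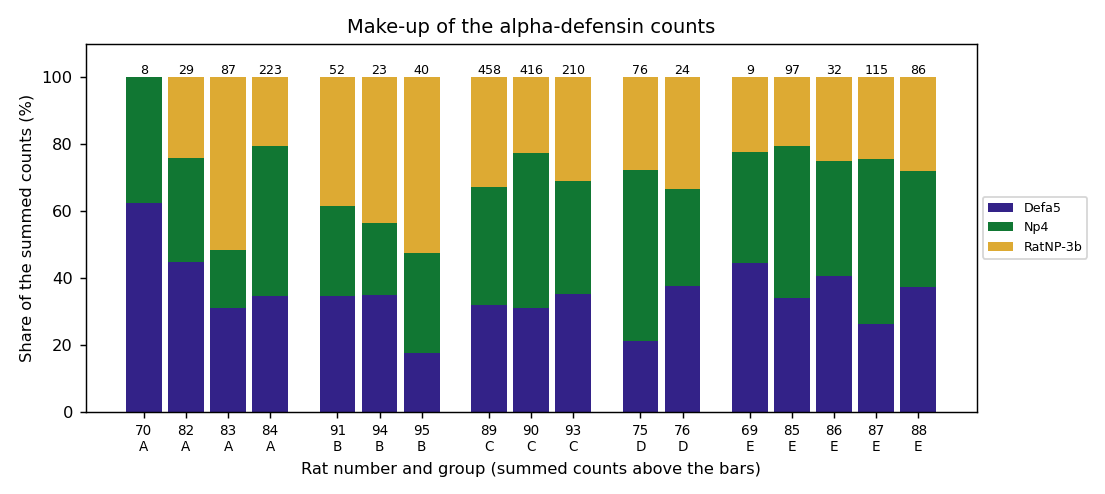
Share of the summed counts taken by Defa5, Np4 and RatNP-3b in each of the 17 rats, in percent, with the summed count above each bar. The sums run from 8 reads in rat 70 to 458 in rat 89; RatNP-3b had 0 reads in rat 70 and 51.7% of the reads in rat 83.

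The setting of these transcripts was examined with genes of the granules and of other blood cells. Of 18 lists of markers, 6 had members among the 99 identifiers that could be named, and those names come from a table of genes that the study selected on these rats, by C against B or D against C, so that neither their direction in contrasts with groups B, C and D nor a count of them is independent evidence. The other 12 lists, those of neurons, oligodendrocytes, astrocytes, microglia, monocytes, T cells, Paneth cells, bone and muscle among them, had 0 members named, and the labelled tissue could not be checked against its markers.

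Azurophil granule genes, which share the granule with the defensins, were represented by 3 of 6: Mpo (myeloperoxidase), Elane (neutrophil elastase) and Ctsg (cathepsin G). Over the 11 rats their r with the mean level of the 3 defensin transcripts was 0.821 for Mpo, 0.685 for Elane and 0.918 for Ctsg. These and the other values of r for list genes are descriptions without a test, since the 11 rats include those of group D, on which list genes were selected, and the genes share a library in each rat. Without rats 70 and 84, the most distant in defensin level, r fell to 0.25 for Elane, which had 0 counts in some rats, and was 0.77 for Mpo and 0.83 for Ctsg. Mpo measured 0.938 to 5.43 CPM in group A, 4.95 to 13.1 CPM in group C and 0.140 to 3.10 CPM in group E.

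Genes of specific and gelatinase granules, which form later in maturation, were represented by 3 of 11. Camp, the gene of the cathelicidin precursor, had r = 0.938 with the defensins and Ngp, neutrophilic granule protein, r = 0.878. Fcnb, the gene of ficolin B, had r = 0.487, 0.945 in the 7 rats numbered 82 to 95, 0.895 over the 17 rats with the group means removed and 0.298 without rats 70 and 84. The rats of group D are not among the 7. Fcnb was at 5.56 CPM or more in both of them, against 0.208 to 2.66 CPM in group A and 0.510 to 2.25 CPM in group E, whereas the defensins of group D lay within the ranges of those groups. That difference between genes was not tested. S100a8 and S100a9, the calprotectin genes of mature neutrophils and the 2 of 9 named in that list, had r = 0.922 and 0.917.

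Markers of other blood cells were set beside the defensins in the same way. Epx, the peroxidase of eosinophils and 1 of 5 in its list, had r = 0.955 with them. In group C, where the defensins were highest, Epx measured 1.22, 1.84 and 1.74 CPM, below the 6.12 CPM of rat 84. The 13 erythroid genes had r from 0.357 (Hbb) to 0.849 (Epb42, a protein of the red cell membrane), with a median of 0.664. Without rats 70 and 84 it was 0.106 (Hba-a1) to 0.727 (Rhag), and in rats 82 to 95 it was 0.111 (Hbb) to 0.833 (Klf1). The 5 platelet genes had r from -0.23 (Gp1ba) to 0.529 (Ppbp), with a median of 0.167. Without rats 70 and 84 r was 0.169 for Ppbp and 0.143 for Gp1ba, and in rats 82 to 95 it was 0.439 and -0.58. The median over 14512 genes was 0.01. The summed erythroid level was 156 to 802 CPM in group A, 207 to 302 CPM in group B, 444 to 1270 CPM in group C, 177 and 262 CPM in group D and 187 to 464 CPM in group E. The summed platelet level was 5.00 to 18.7, 5.48 to 7.52, 14.6 to 21.1, 6.27 to 7.81 and 4.55 to 7.04 CPM in the same order of groups. The part of blood in the defensin values was not tested.

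In ±st(0), the contrast without rats that chose the list genes, 0 of the 27 were called, as were 0% of all genes. The median log2(FC) in that contrast was -1.48 for the azurophil list, 0.00 for the specific granule list, 0.30 for the mature neutrophil list, -0.68 for Epx, -0.79 for the erythroid list and -0.63 for the platelet list, against 0.01 over all genes. The azurophil median is the value of Ctsg (SE 0.790, 95% interval -3.15 to 0.19). Ctsg ran from 0 CPM in rat 70 to 2.96 CPM in rat 84 within group A. Group C served to select the list genes, and contrasts with it are given as a description only. In ±SCI(st) the median was 2.74 for the azurophil, 1.76 for the specific granule, 1.67 for the mature neutrophil, 1.96 for the erythroid and 1.90 for the platelet list and 0.26 for Epx, against -0.02 over all genes. Over all genes tested 8.31% were called in ±SCI(st), 7.13% in ±st/SCI(0), 5.3% in ±SCI(0) and 0.0259% in ±pim(st/SCI), and nothing is read from these shares about the defensins or the lists.

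The genes most like the defensins were ranked among the 14512 genes that averaged 1 CPM or more, by r with their mean level over the same 11 rats. Of those genes 14 exceeded an r of 0.8. The average was taken over all 17 rats, group C included, and the cut left out Ctsg (r = 0.918, average 0.939 CPM). The 10 highest were ENSRNOG00000008394 (r = 0.956), Epx (0.955), Camp (0.938), ENSRNOG00000022727 (0.925), S100a8 (0.922), S100a9 (0.917), LOC103690079 (0.910), Ngp (0.878) and 2 other identifiers without a name. Their ranges differed: ENSRNOG00000022727 ran only from 86.4 to 105 CPM over the 17 rats, where Camp ran from 0.510 to 8.19 CPM. As a description over 17 rats, r was 0.961 for Camp, 0.940 for S100a9, 0.939 for S100a8 and 0.907 for LOC103690079, but 0.751 for Epx.

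**Figure D5:**
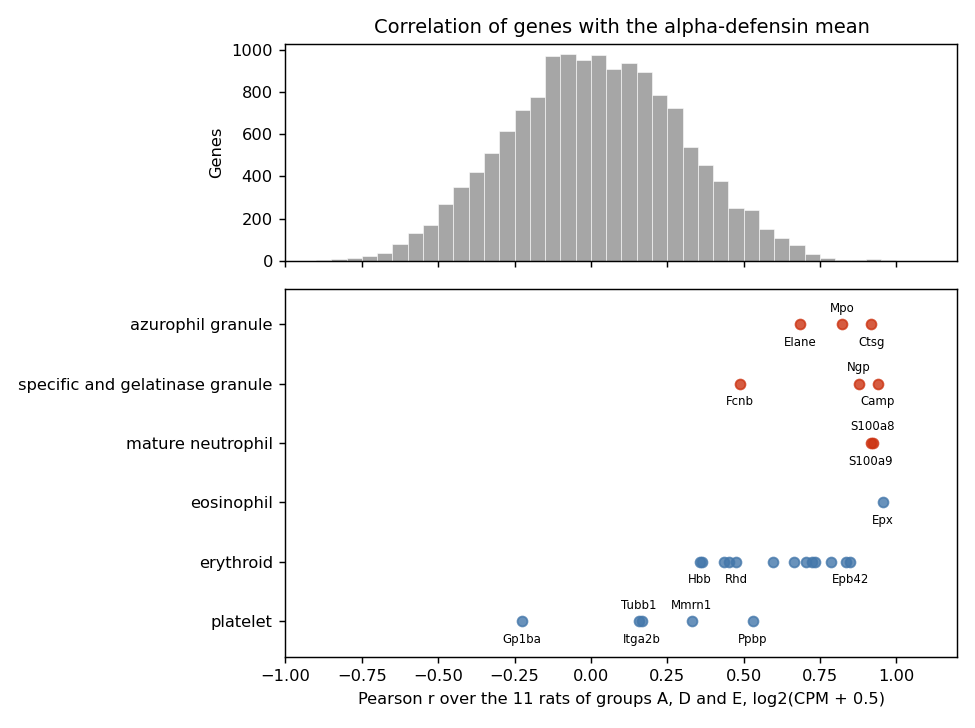
Pearson's r of genes with the mean level of Defa5, Np4 and RatNP-3b over the 11 rats of groups A, D and E, as a histogram of 14512 genes (upper panel) and as 1 point per named gene of 6 marker lists (lower panel). The histogram centers near 0, with a median of 0.01. The azurophil genes lie between 0.685 and 0.918, the specific granule genes between 0.487 and 0.938, and S100a8 and S100a9 at 0.922 and 0.917. Epx lies at 0.955, the erythroid genes between 0.357 and 0.849 and the platelet genes between -0.23 and 0.529. Genes averaging under 1 CPM, such as Elane and Ctsg, are not in the histogram. The list genes were selected by the study on these rats.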

How the data were processed

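RNA of 17 rat spinal cords, 1 library per rat, was prepared with a stranded kit after depletion of ribosomal RNA. Per the labels' processing notes, the authors made the deposited counts with bcl2fastq 1.8.4 (the study's methods give another version of it), Trim Galore 0.4.1 and STAR 2.5.0a, whose GeneCounts function counts reads per Ensembl gene. The methods name genome Rnor_5.0 and the labels Rnor_6.0, and the strand column that was taken is not stated. The deposited values are whole-number counts of 32494 genes, not normalized, with totals of 9852873 to 14137717. Of the 17 sample columns 0 were unused.

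Groups were taken from the letter in the sample titles. The fits used edgeR 4.0.16, DESeq2 1.42.0 and limma 3.58.1 under R 4.3.3, and the rest Biopython 1.88, scipy 1.17.1, pandas 2.3.3, numpy 2.4.6 and matplotlib 3.10.9 under Python 3.11.15. Genes were kept by filterByExpr (15460), scaled by TMM and fitted with glmQLFit in 1 model of 5 group means; contrasts were tested with glmQLFTest and adjusted by the Benjamini-Hochberg method, and calls required an FDR below 0.05 together with a log2(FC) beyond 1 in either direction. The study's exact test on pairs of groups was an alternative. Each SE was taken as the absolute log2(FC) over the root of F. Correlations used log2(CPM + 0.5) and 100000 permutations. Each of the 17 rats is 1 animal, so p-values measure the spread between rats.

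The members and lists were chosen with earlier results of these data known. The genes named are the 3 transcripts, members of 18 marker lists that could be named (27 of 127 genes), and the 10 genes most correlated with the 3. Names come from a supplementary table of the study and cover 99 identifiers, and 17 of the 18 lists matched under 80%, so no test was made on a list as a whole. Promoter sequences and the order of genes are from RefSeq tables of GRCr8, matched by symbol, and 2 of the 3 transcripts had a promoter there. Data were simulated with 200 genes changed by 3 on the log2 scale. The test recovered 196 with 4 false calls in E minus A, 189 with 3 in D minus A and 196 with 5 in D minus E. The changed genes were drawn at random from all genes tested, whose median biological coefficient of variation was 12.5%. That of the 3 transcripts was 61.4%, 81.6% and 75.9%, so these recoveries do not apply to them.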

Additional observations from a re-analysis of the deposited data

Results flagged for a closer look

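In groups of 4 or 5 rats, the highest or lowest rat was set against the others by Dixon's criterion for the 30 genes named. Of 60 gene and group pairs, 6 stood apart. The criterion's nominal rate of 1 in 20 holds for normal values and independent pairs. Low CPM values are skewed and the genes share the same rats, so the count cannot be set against chance. Np4 in group A stood apart through rat 84, at 9.87 CPM with the next rat at 1.42 CPM. The same rat stood apart in group A for Elane (2.27 CPM, next 0.190 CPM) and for Car1, an erythroid carbonic anhydrase (3.16 CPM, next 0.471 CPM). Car1 in group E stood apart through rat 87, at 3.38 CPM with the next at 0.525 CPM. Tubb1, a tubulin of platelets, stood apart through rat 83 in group A (3.99 CPM, next 0.941 CPM) and through rat 87 in group E (1.41 CPM, next 0.630 CPM).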

How the results depend on the processing

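No paired analysis was possible because each rat carries a number of its own and no 2 groups share one. Without a limit on fold change, 3796 genes were called in D minus A, 4179 in D minus E, 1912 in B minus A, 3380 in C minus A and 4429 in C minus E. In E minus A edgeR's exact test on the pair called 24 genes, the same scaled by total counts 25 and DESeq2 17, against 0. In C minus B the counts were 35, 33 and, for the quasi-likelihood fit of the pair alone, 3. In D minus C, against 4, they were 73, 74 and, for DESeq2, 32, with 9 in the pair alone, 17 without a filter, and 1 each with robust dispersions and with the term for the number series. That term turned D minus A to 0.87, 2.41 and 3.07 and D minus E to 1.56, 2.79 and 3.84 for Defa5, Np4 and RatNP-3b (log2). The r of Np4 and RatNP-3b fell to 0.72 in rats 82 to 95, and a pseudocount of 0.1 CPM turned the difference of RatNP-3b in E minus A to 0.067. The causes were not tested. With 1 rat left out at a time, calls ranged from 0 to 49 in E minus A (0 with rat 70 left out, 49 with rat 82), 482 to 1940 in D minus A, 527 to 1874 in D minus E and 0 to 36 in D minus C (lowest without rat 76, highest without rat 75, where group D is a lone rat assumed to vary like the others), 557 to 889 in B minus A, 664 to 1415 in C minus A and 812 to 1554 in C minus E. In E minus A, Defa5 ranged from -0.97 to 0.45, Np4 from -0.78 to 1.57 and RatNP-3b from -1.15 to -0.21; in D minus A, from -1.87 to -0.46, -2.24 to 1.10 and -1.66 to -0.48; in D minus E, from -1.18 to -0.70, -1.92 to 0.19 and -0.91 to 0.12; in B minus A, from -1.99 to -0.40, -1.99 to 0.25 and -0.92 to 0.01. The differences on log2(CPM + 0.5) ranged from -0.68 to 0.31, -0.31 to 0.92 and -0.84 to 0.27. Calls on the 3 transcripts in E minus A, D minus A and D minus E stayed at 0 under each of these settings. With 0 to 193 reads per rat, a 2-fold fall of the 3 transcripts in E minus A lay inside the intervals.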
